A study of Mus musculus with 14 samples.

Results

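The 38 genes described here are genes that cells switch on when they sense interferon. They were chosen by name, as established interferon-stimulated genes in 8 role groups, out of 30284 genes in the expression tables. The choice was made with earlier results of these data known. All 38 had an entry in the tables and all 38 passed the filter on low counts that left 15775 genes for testing. The samples were splenic regulatory T cells of C57/B6 mice, sorted as Foxp3+YFP+ cells, with libraries in 2 genotypes. The control mice were Tln1 wt/wt Foxp3cre/wt, and the other mice were Tln1 fl/fl Foxp3cre/wt. Both genotypes therefore carried 1 Foxp3 allele with Cre, and in the second genotype the cells that express this allele are meant to lose talin-1, which links integrins to the actin skeleton. Because Foxp3 is X-linked, female carriers keep regulatory T cells that use the other allele, and the YFP gate is meant to leave those out. The 4 control units and the 3 units of the second genotype were each given as 2 samples, whose counts were added. The labels do not say whether the 2 samples of a unit are lanes, libraries or animals. The age of the mice, and how many animals stand behind each unit, are not given in the sources used here, so the p-values below measure the spread between these units, part of which may be technical.

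Type I and type II interferons bind receptors whose Janus kinases phosphorylate STAT proteins. Type I interferon assembles a complex with STAT2 and IRF9 that binds the interferon-stimulated response element, and interferon-gamma acts through the gamma-activated site. The genes that follow encode sensors of viral nucleic acid, proteins that block viral RNA and entry, GTPases that attack the vacuoles of intracellular microbes, and inhibitors that end the signal. In regulatory T cells the same pathway is known to shape survival and suppressive function during infection and inflammation.

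Interferon-stimulated genes were mostly lower in the units labelled Tln1 fl/fl. By edgeR's quasi-likelihood test with Benjamini-Hochberg adjustment at 0.05, 12 of the 38 fell and 2 rose. The genes that fell were Ifit1, Ifit2, Ifit3, Rsad2, Rtp4, Usp18, Samd9l, Xaf1, Ifih1, Trim30a, Gbp2 and Gbp7, and the genes that rose were Irf1 and Ifitm3. The lower calls were 31.6% of the members, beside 6.52% of all tested genes, and the higher calls were 5.26% of the members, beside 7.07%. The median log2 fold change of the 38 genes was -0.47, beside 0.06 over all tested genes. In 21 members (55.3%) every knockout-labelled unit lay below every control unit, beside 14.1% of all tested genes, and in 2 members (5.26%) every one lay above, beside 16.7%. An edgeR unadjusted p under 0.05 was reached by 23 members (60.5%) in the lower direction, beside 15% of all tested genes, and by 2 (5.26%) in the higher direction, beside 17.6%. Because the members were chosen with earlier results known, these shares describe the list and are not a test of it. In these bulk samples a change in the share of a cell type and a change in RNA per cell cannot be told apart.

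**Figure D1:**
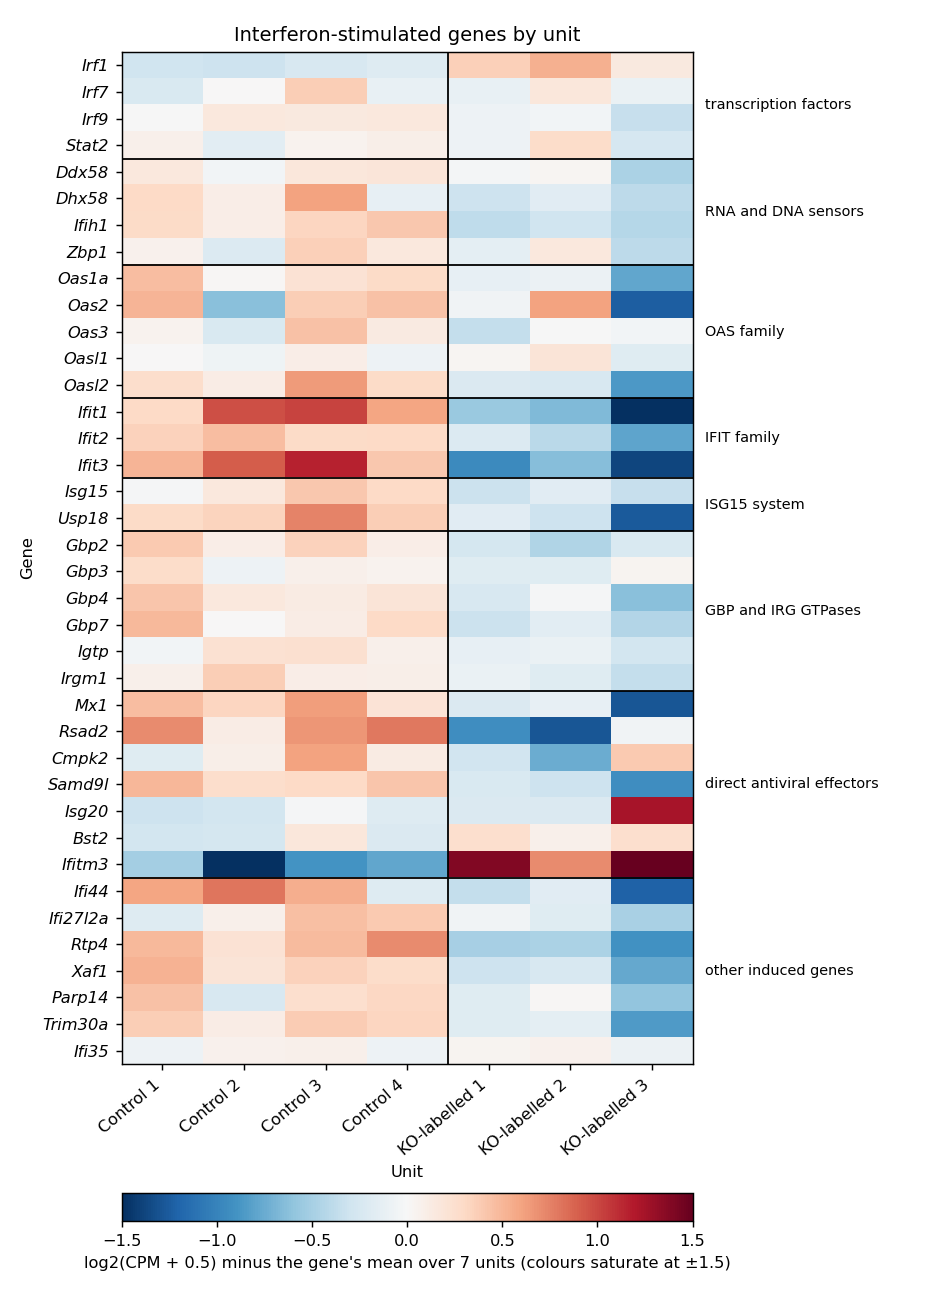
Heat map of the 38 genes (rows, by role) in the 7 units (columns), coloured by log2(CPM + 0.5) minus the gene's mean over the units, so that red is above and blue below that mean. Knockout-labelled unit 3 holds the lowest value of 28 genes, and control unit 3 holds the highest value of 15.

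The labels were checked first. Tln1 itself averaged 668 ± 128 CPM (SD, n = 4) across control units and 901 ± 113 CPM (SD, n = 3) across knockout-labelled units, a log2 difference of 0.43 ± 0.18 (SE) that did not pass (edgeR adjusted p = 0.126). With an offset for effective transcript length that difference was -0.40, and the floxed exons are not given in the sources used here, so the gene total does not check the deletion. Foxp3, the defining factor of regulatory T cells, averaged 419 ± 71.0 CPM (SD, n = 4) against 428 ± 76.1 CPM (SD, n = 3). Of 17 regulatory T cell markers 9 were called lower, and their summed level ran from 5204 to 6095 CPM in the control units and from 3323 to 4325 CPM in the others. Markers of other cell types were higher in the knockout-labelled units. The summed B-cell markers ran from 454 to 1329 CPM against 4048 to 9170 CPM (8 of 12 genes called higher), and the neutrophil markers from 1.95 to 15.7 CPM against 278.5 to 1637 CPM (10 of 11). Erythroid markers reached 3811 CPM in knockout-labelled unit 3 and at most 443 CPM in any other unit, with 0 of 10 genes called by edgeR and 9 higher at an unadjusted p under 0.05. The part of these other transcripts in the interferon genes that fell was not tested. The control units held 12851425 to 39214264 estimated reads in genes and the knockout-labelled units 38811489 to 56109143. The thinnest member value was 22 reads (Ifitm3 in control unit 2), and 35 of the 38 genes had at least 100 reads in every unit.

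The promoters of several members show the element through which interferon acts. In the RefSeq windows from 250 bases before to 50 bases after each gene's start (build GRCm38.p6), the core of the response element, 2 copies of GAAA with any 2 bases between them on either strand, lay in 17 of the 29 members that had a window (58.6%) and in 3.99% of 27025 genes. Among the members that fell it lay in 7 of 10 windows, among those that rose in 1 of 2, and among the rest in 9 of 17. The core of the gamma-activated site, TTCNNNGAA on either strand, lay in 9 of the 29 windows (31%) and in 9.55% of all genes. It lay in 2 of 10 windows of the genes that fell, in 2 of 2 of those that rose and in 5 of 17 of the rest. The 250 bases before the start are shown for 4 genes that fell and for Irf1, 5′ to 3′ on the gene's strand, with matches in capitals: the response element core in the first 4 and the gamma-activated site core in Irf1. For Ifitm3 the line holds the stretch just after the start that carries both of its response element matches. A gamma-activated site core, TTCTGAGAA, runs into the second of these and is not marked there. These are matches of letters and not measured binding.
Ifit1, chr19:34640639-34640888, plus strand: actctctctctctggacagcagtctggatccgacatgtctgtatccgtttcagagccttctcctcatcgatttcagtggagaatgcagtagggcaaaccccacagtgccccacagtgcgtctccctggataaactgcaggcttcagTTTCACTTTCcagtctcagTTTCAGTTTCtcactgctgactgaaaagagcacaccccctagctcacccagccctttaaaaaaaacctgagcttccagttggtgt
Ifit3, chr19:34583279-34583528, plus strand: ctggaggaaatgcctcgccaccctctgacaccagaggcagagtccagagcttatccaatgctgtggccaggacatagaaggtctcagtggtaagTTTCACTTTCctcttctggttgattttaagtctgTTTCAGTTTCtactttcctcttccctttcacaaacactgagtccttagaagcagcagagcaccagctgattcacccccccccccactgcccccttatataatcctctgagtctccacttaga
Rsad2, chr12:26456453-26456702, minus strand: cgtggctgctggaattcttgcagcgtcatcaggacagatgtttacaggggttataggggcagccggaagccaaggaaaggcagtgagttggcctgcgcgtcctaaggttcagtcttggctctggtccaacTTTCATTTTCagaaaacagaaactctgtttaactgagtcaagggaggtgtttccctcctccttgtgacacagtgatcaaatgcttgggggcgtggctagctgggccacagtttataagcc
Gbp2, chr3:142620413-142620662, plus strand: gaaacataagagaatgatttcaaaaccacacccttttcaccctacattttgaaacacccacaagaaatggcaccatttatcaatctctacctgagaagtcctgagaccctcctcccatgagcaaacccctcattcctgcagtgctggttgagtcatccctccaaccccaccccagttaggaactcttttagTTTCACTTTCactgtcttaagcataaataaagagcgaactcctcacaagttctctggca
Irf1, chr11:53769764-53770013, plus strand: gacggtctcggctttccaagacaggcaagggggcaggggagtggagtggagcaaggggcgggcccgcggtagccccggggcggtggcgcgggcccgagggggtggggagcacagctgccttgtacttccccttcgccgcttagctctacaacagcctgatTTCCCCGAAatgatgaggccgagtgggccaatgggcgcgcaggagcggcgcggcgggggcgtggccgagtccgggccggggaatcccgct
Ifitm3, chr7:141010716-141010742, minus strand: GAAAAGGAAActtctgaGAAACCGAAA
Ifit1 and Ifit3 each held a pair of response element matches, which began 104 and 85 bases before the start of Ifit1 and 156 and 122 bases before that of Ifit3. The match began 120 bases before the start of Rsad2 and 59 before that of Gbp2. In the Irf1 window no response element core was found, and the gamma-activated site core began 90 bases before the start. Mx1, Oas2, Ifi27l2a, Rtp4, Zbp1, Parp14, Dhx58, Usp18 and Gbp4 were not searched.

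Among the transcription factors, Irf1 rose and the subunits of the type I complex did not pass the test. Irf1, an activator that responds strongly to interferon-gamma, was at 241, 239, 250 and 259 CPM in the control units and at 378, 429 and 328 CPM in the knockout-labelled units. Every knockout-labelled unit was above every control unit, and the 4 control units were close together. The mean went from 247 ± 9.08 CPM (SD, n = 4) to 378 ± 50.2 CPM (SD, n = 3), 1.53-fold, with a log2 fold change of 0.61 ± 0.13 (SE) and an edgeR adjusted p = 0.0170. It was lost when control unit 4 or knockout-labelled unit 2 was left out (adjusted p = 0.0521 to 0.0559), and in a fit that takes out the trend with transcript GC content and length (0.44, adjusted p = 0.102). Below, "without the GC trend" means this fit, which takes out GC content and length together and does not separate them. Irf7, which amplifies type I interferon responses, was at 56.8, 67.1, 86.3 and 61.7 CPM in the control units and at 61.8, 75.3 and 62.3 CPM in the others, so the groups overlapped (-0.03 ± 0.16, edgeR adjusted p = 0.903). Irf9, the DNA-binding subunit of the complex, was at 181.5, 203, 202 and 203 CPM against 173, 178 and 144 CPM. Its groups did not overlap, but the difference of -0.26 ± 0.13 did not pass (edgeR adjusted p = 0.175). Stat2 was at 134, 113, 131 and 135 CPM against 121, 154 and 106 CPM, with knockout-labelled units on both sides of the control range (-0.02 ± 0.15, edgeR adjusted p = 0.946).

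The 4 sensors of viral nucleic acid were all below 0 in log2 fold change (median -0.40), and 1 fell. Ifih1, which encodes the long double-stranded RNA sensor MDA5, was at 62.6, 55, 64.1 and 67.7 CPM in the control units and at 39.0, 41.3 and 37.7 CPM in the knockout-labelled units. All 3 knockout-labelled units were below all control units and lay within a narrow band. Ifih1 fell by 0.66 ± 0.12 (SE) on the log2 scale (edgeR adjusted p = 0.0105) and passed in each of 7 fits with 1 unit left out, though not in the fit without the GC trend (-0.38, adjusted p = 0.122). Dhx58, the LGP2 helicase that works beside MDA5, was at 32.2, 28, 40.1 and 23.9 CPM against 21.0, 23.2 and 19.8 CPM. Its groups did not overlap either, and the log2 fold change of -0.54 ± 0.19 did not pass (edgeR adjusted p = 0.0806), while it did without the GC trend (-0.71, adjusted p = 0.0421). Ddx58, which encodes RIG-I, the sensor of RNA with a 5′ triphosphate, ran from 149.5 to 174 CPM in the control units and from 111 to 157 CPM in the others (-0.26, edgeR adjusted p = 0.247). Zbp1, a sensor of left-handed nucleic acid and the most abundant of the 4 per length with a mean of 62.9 TPM, was at 137, 114, 168 and 146 CPM against 118, 145 and 99.6 CPM. The groups of both genes overlapped, and Zbp1 differed by -0.22 (edgeR adjusted p = 0.405).

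The OAS family is named for enzymes that make the 2′-5′ oligoadenylates that activate RNase L. None of its 5 genes here passed the edgeR test, and 2 had an unadjusted p under 0.05 in the lower direction. Oasl2 was called lower by limma-voom, by DESeq2's Wald test and under a CPM filter, and Oas1a, Oas3 and Oasl2 with a GC and length offset that is not centred. Oasl2, the most abundant per length with a mean of 9.57 TPM, was at 17.0, 15.2, 22.2 and 17.3 CPM in the control units and at 12.0, 11.9 and 7.53 CPM in the others. Its groups did not overlap (-0.78 ± 0.24, edgeR adjusted p = 0.0541). Oas1a was at 22.3, 16.4, 18.8 and 19.8 CPM against 14.8, 15.2 and 9.16 CPM, also without overlap (-0.57 ± 0.23, edgeR adjusted p = 0.115), but it shares 68.8% of its 31-base words with other genes, mainly Oas1g. Oas2 was the most scattered of the family, at 34.1, 15.2, 30.9 and 32.5 CPM against 22.9, 36.4 and 9.86 CPM. Its log2 fold change was -0.29 ± 0.47 and turned to 0.08 without knockout-labelled unit 3. Oas3 ran from 30.3 to 48.5 CPM in the control units and from 27.7 to 35.3 CPM in the others, and Oasl1 from 6.78 to 7.69 CPM and from 6.25 to 8.29 CPM. Both overlapped, at -0.25 (edgeR adjusted p = 0.358) and 0.03 (edgeR adjusted p = 0.948).

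In the IFIT family, the Ifit1 product binds viral RNA that lacks the host form of cap and blocks its translation. This family held the 2 largest decreases among the 38 genes, and all 3 of its members fell. Ifit3 (chr19:34583531-34588731, plus strand, GRCm38) was at 26.4, 34.9, 41.6 and 24.5 CPM in the control units and at 9.27, 11.6 and 6.78 CPM in the knockout-labelled units. Ifit1 (chr19:34640871-34650009, plus strand) was at 31.6, 50.5, 52.6 and 38.9 CPM against 17.3, 16.1 and 7.83 CPM. In both genes the highest knockout-labelled unit lay well under the lowest control unit, and knockout-labelled unit 3 was the lowest. Ifit3 went from 31.8 ± 7.93 CPM (SD, n = 4) to 9.23 ± 2.43 CPM (SD, n = 3), 3.46-fold lower (log2 -1.79 ± 0.26, edgeR adjusted p = 0.00348). Ifit1 went from 43.4 ± 9.89 CPM (SD, n = 4) to 13.7 ± 5.15 CPM (SD, n = 3), 3.17-fold lower (log2 -1.66 ± 0.30, edgeR adjusted p = 0.0113). Ifit2, the most abundant of the 3 per length with a mean of 20.3 TPM, showed the smallest decrease of the family. It was at 103, 112, 99.1 and 99.9 CPM against 70.5, 61.4 and 46.8 CPM, without overlap (log2 -0.80 ± 0.15, edgeR adjusted p = 0.0110). All 3 passed with any 1 unit left out. Without the GC trend Ifit3 still passed (-1.74, adjusted p = 0.00588), while Ifit1 (-1.31, adjusted p = 0.0525) and Ifit2 (-0.40, adjusted p = 0.146) did not. Ifit3 shares 61.8% of its 31-base words with its neighbour Ifit3b, so reads could be split between the pair. Ifit3b, which is not among the 38, fell by a like amount (log2 -1.78 ± 0.41, edgeR adjusted p = 0.0230).

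**Figure D2:**
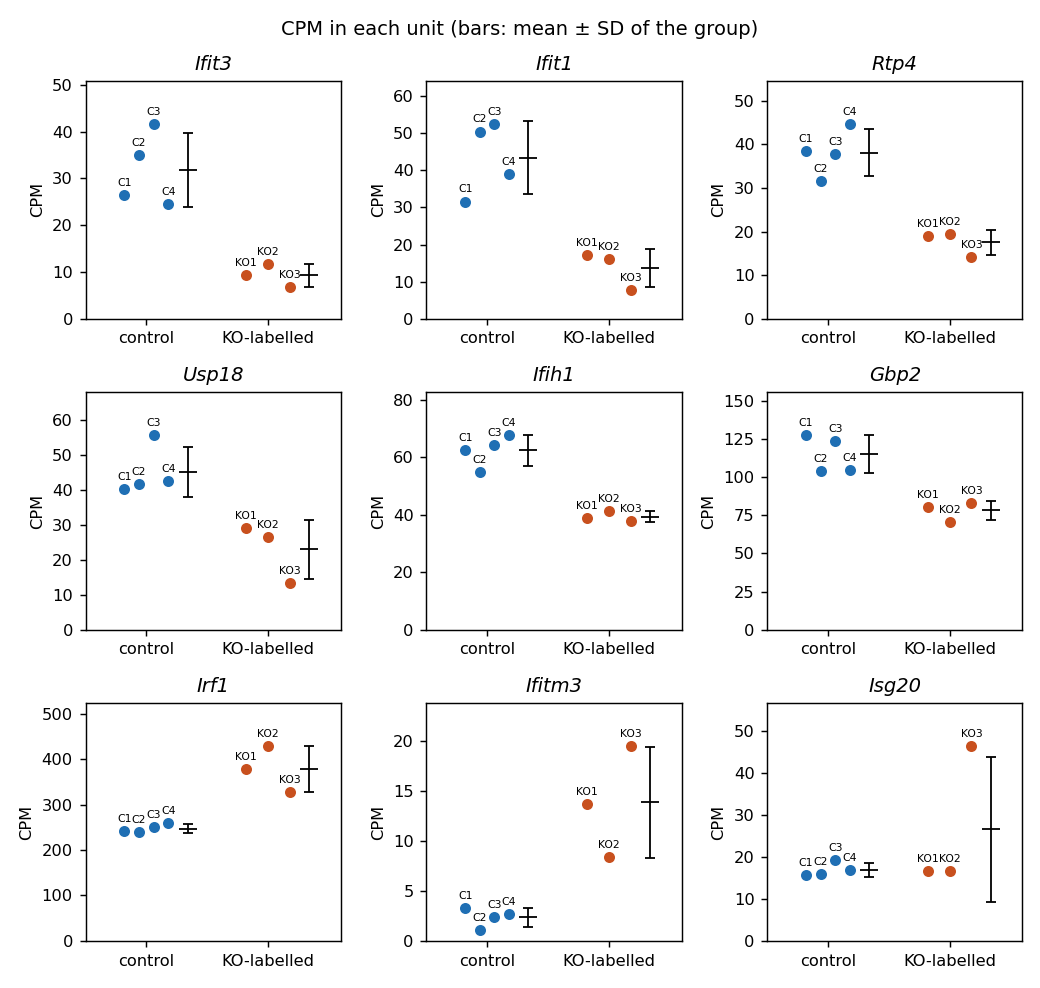
CPM in each unit (vertical axes, each from 0) for 9 members, with control units C1 to C4 in blue, knockout-labelled units KO1 to KO3 in orange, and the group mean ± SD as a black bar. Ifit3, Ifit1, Rtp4, Usp18, Ifih1 and Gbp2 have all knockout-labelled units below all control units, Irf1 and Ifitm3 have all above, and Isg20 has 1 high unit at 46.4 CPM.

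In the ISG15 system, Usp18 fell and Isg15 did not pass. Usp18, the protease that takes ISG15 off its targets and also blocks the type I receptor, was at 40.3, 41.8, 55.8 and 42.7 CPM in the control units and at 29.3, 26.6 and 13.5 CPM in the others. The groups did not overlap, with control unit 3 high and knockout-labelled unit 3 low. The log2 fold change was -0.97 ± 0.26 (edgeR adjusted p = 0.0373). The call ended without any 1 of the 4 control units or without knockout-labelled unit 2 (adjusted p = 0.0532 to 0.0841), and without the GC trend (-1.08, adjusted p = 0.0582). Isg15, the ubiquitin-like modifier itself, was at 11.7, 13.3, 16.0 and 14.7 CPM against 9.38, 10.5 and 9.28 CPM. It did not overlap between groups, and its difference of -0.52 ± 0.21 missed the threshold (edgeR adjusted p = 0.114) but passed without the GC trend (-0.95, adjusted p = 0.0282). That fit also takes out length. Against the median of genes within 1 percentage point of its GC content, Isg15 lay at -0.70.

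All 6 GTPases of the guanylate-binding and immunity-related families were below 0, with a median of -0.44, and 2 fell. Gbp2 was at 127, 104, 123 and 104 CPM in the control units and at 80.6, 70.6 and 82.9 CPM in the knockout-labelled units. Gbp7 was at 347, 249, 268 and 304 CPM against 197, 222 and 182 CPM. Neither gene overlapped between groups, at 1.47-fold (log2 -0.56 ± 0.13, edgeR adjusted p = 0.0246) and 1.46-fold lower (log2 -0.54 ± 0.15, edgeR adjusted p = 0.0402). Gbp2 missed the threshold when control unit 4 or knockout-labelled unit 2 was left out (adjusted p = 0.0518 to 0.0775) and without the GC trend (adjusted p = 0.0919). The Gbp7 call ended without control unit 1 or 4 or without any 1 knockout-labelled unit (adjusted p = 0.0605 to 0.117), and held without the GC trend (-0.51, adjusted p = 0.0283). Gbp4, one of the most abundant members by reads, was at 532, 446, 435 and 456 CPM against 338, 396 and 258 CPM, without overlap (-0.50 ± 0.17, edgeR adjusted p = 0.0700). Igtp, the most abundant of the group per length with a mean of 109 TPM, was at 225, 270, 273 and 243 CPM against 212, 216 and 191 CPM (-0.29, edgeR adjusted p = 0.138). Irgm1, which regulates the other immunity-related GTPases, was at 123, 151, 125 and 123 CPM against 108, 103 and 90.4 CPM (-0.38, edgeR adjusted p = 0.0767). Igtp and Irgm1 did not overlap between groups. Gbp3, a neighbour of Gbp7 on chromosome 3, did overlap, at 80.5 to 102 CPM against 74.7 to 87.5 CPM (-0.19, edgeR adjusted p = 0.345). Gbp4 shares 22.4% of its 31-base words with other genes and Igtp 15.9%.

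The 7 direct antiviral effectors moved in both directions: Rsad2 and Samd9l fell, Ifitm3 rose, and 4 did not pass. Rsad2, which encodes viperin, an enzyme that makes a chain-terminating nucleotide, was at 12.5, 8.16, 12.1 and 13.3 CPM in the control units and at 3.70, 2.78 and 7.17 CPM in the others. Its groups were separate, with knockout-labelled unit 3 the nearest to the control units, unlike most members. Rsad2 was 2.53-fold lower (log2 -1.34 ± 0.36, edgeR adjusted p = 0.0355). The call ended without control unit 1, 3 or 4 or without knockout-labelled unit 1 or 2 (adjusted p = 0.0601 to 0.0947), and without the GC trend (-1.02, adjusted p = 0.0955). Samd9l, a restriction factor for poxviruses and a brake on cell growth, had the highest CPM of all members in the control units, at 806, 685, 699 and 759, against 486, 461 and 299 CPM. No unit of one group reached the other, and knockout-labelled unit 3 was lowest (log2 -0.83 ± 0.19, edgeR adjusted p = 0.0202). Samd9l missed the threshold without control unit 4 (adjusted p = 0.0594) and without the GC trend (-0.26, adjusted p = 0.372), and with 38.78% it has the lowest GC content of the 38 genes.

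Ifitm3, a membrane protein that stops enveloped viruses from fusing, had the largest fold change of the 38 genes, and upward. It was at 3.30, 1.07, 2.42 and 2.67 CPM in the control units and at 13.7, 8.42 and 19.5 CPM in the knockout-labelled units. All knockout-labelled units were above all control units, from 2.37 ± 0.938 CPM (SD, n = 4) to 13.9 ± 5.55 CPM (SD, n = 3), 5.90-fold (log2 2.56 ± 0.41, edgeR adjusted p = 0.00541). It passed with any 1 unit left out and without the GC trend (2.12, adjusted p = 0.00635). Its relatives Ifitm1 and Ifitm2, which are not among the 38, rose as well. Ifitm1 was at 0.472, 0.147, 0.300 and 0.381 CPM against 6.60, 8.29 and 8.91 CPM (log2 4.65 ± 0.42, edgeR adjusted p = 0.000395). Ifitm2 was at 1.89, 2.54, 1.80 and 3.05 CPM against 17.3, 12.5 and 31.6 CPM (log2 3.15 ± 0.35, edgeR adjusted p = 0.00108). Ifitm2 shares 36.5% of its 31-base words with other genes and Ifitm3 14.2%. The family is also expressed by granulocytes and macrophages. Among the knockout-labelled units, Ifitm2, Ifitm3 and the summed markers of neutrophils, of monocytes and macrophages, of B cells and of erythroid cells shared 1 order, with unit 3 highest and unit 2 lowest, and Ifitm1 did not share it. Other sums did not share it either, with unit 3 lowest. Dendritic cell markers without Bst2 were at 142, 101 and 98.2 CPM in units 1 to 3. Cytotoxic lymphocyte markers were at 122, 88.9 and 63.8 CPM. The monocyte and macrophage sum ran from 72.4 to 162 CPM in the control units and from 269 to 705 CPM in the others, with 4 of 10 genes called higher. In the control units Cd14, Fcgr1 and Itgam were at 0 in at least 1 unit, and so were 8 of the 11 neutrophil markers. The part of these cells in the Ifitm values was not tested.

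**Figure D3:**
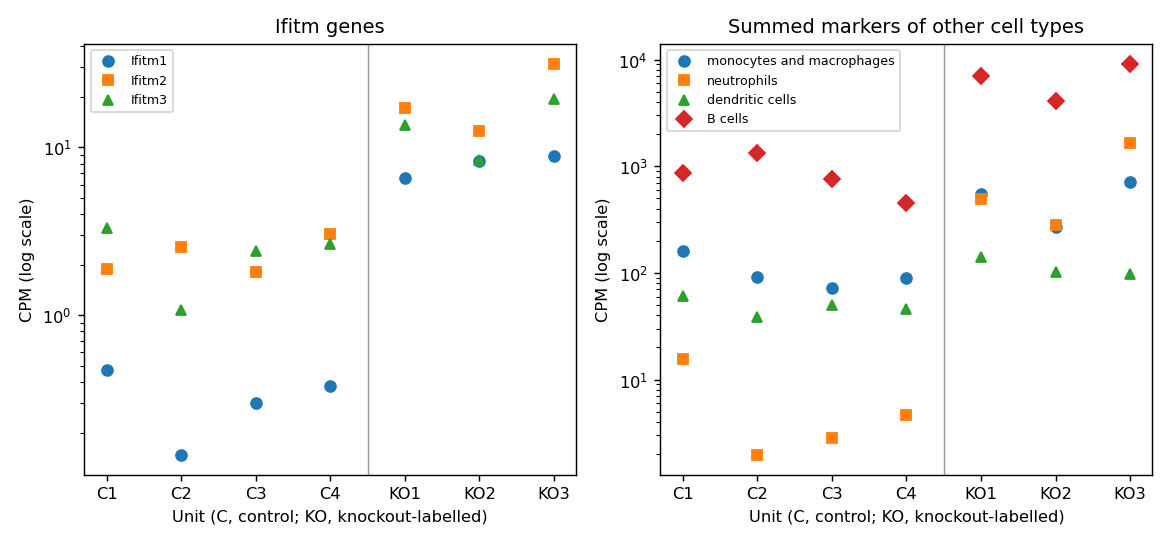
CPM on a log axis in the 7 units (C, control; KO, knockout-labelled), for Ifitm1, Ifitm2 and Ifitm3 in the left panel and for summed markers of 4 other cell types in the right panel. In both panels every knockout-labelled unit lies above every control unit, as with Ifitm1 at 6.60 to 8.91 CPM over 0.147 to 0.472 CPM.

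The other 4 effectors showed no pattern shared by all. Mx1, a dynamin-like GTPase, was at 20.1, 18.2, 22.5 and 16.7 CPM against 12.3, 13.2 and 5.63 CPM, without overlap (-0.90 ± 0.29, edgeR adjusted p = 0.0633). Cmpk2, a mitochondrial nucleotide kinase whose gene neighbours Rsad2 on chromosome 12, ran from 13.2 to 23.2 CPM against 8.83 to 19.995 CPM. It overlapped between groups (-0.34, edgeR adjusted p = 0.468). Isg20, an RNA exonuclease, was at 15.7, 15.9, 19.3 and 16.9 CPM against 16.7, 16.6 and 46.4 CPM. Knockout-labelled unit 3 alone was high, and the log2 fold change of 0.65 ± 0.35 (edgeR adjusted p = 0.240) became -0.03 (adjusted p = 0.955) without it. The same unit had the highest erythroid and neutrophil marker sums, and their part in the Isg20 value was not tested. Bst2, or tetherin, which holds budding virus at the cell surface and also marks plasmacytoid dendritic cells, was at 24.9, 25.1, 33.9 and 25.9 CPM against 35.9, 31.9 and 36.1 CPM. Its groups overlapped through control unit 3 (0.33 ± 0.16, edgeR adjusted p = 0.165). The 9 other dendritic cell markers summed to 38.4 to 61.4 CPM in the control units and 98.2 to 142 CPM in the others, and their part in the Bst2 value was not tested.

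Of the remaining 7 induced genes, 3 fell and the median log2 fold change was -0.66. Rtp4, a chaperone of receptors at the cell surface that also binds viral RNA, was at 38.4, 31.6, 37.9 and 44.7 CPM in the control units and at 19.1, 19.4 and 14.3 CPM in the others. The groups were far apart for their spread, from 38.1 ± 5.36 CPM (SD, n = 4) to 17.6 ± 2.88 CPM (SD, n = 3), 2.17-fold lower (log2 -1.12 ± 0.18, edgeR adjusted p = 0.00541). The Rtp4 call held with any 1 unit left out and without the GC trend (-1.09, adjusted p = 0.00573). Xaf1, which promotes apoptosis by opposing the inhibitor XIAP, was at 80.4, 64.1, 71.1 and 67.7 CPM against 44.9, 47.4 and 32.7 CPM. It too was separate between groups (log2 -0.77 ± 0.16, edgeR adjusted p = 0.0147) and passed in all of those fits (-0.68, adjusted p = 0.0250 without the GC trend). Trim30a, an inhibitor of NF-kappaB signalling and of retroviruses, was at 304, 253, 307 and 293 CPM against 207, 213 and 130 CPM (log2 -0.66 ± 0.18, edgeR adjusted p = 0.0391). Its groups did not overlap, yet the call is the least steady of the 14: with 1 unit left out it passed only without knockout-labelled unit 1, and ended in the other 6 fits (adjusted p = 0.0517 to 0.0971). Without the GC trend it was -0.17 (adjusted p = 0.603), and 11.8% of its 31-base words occur in other genes.

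Ifi27l2a, a mitochondrial protein of little known function, had the highest level of all members per length, at 341 ± 83.8 TPM (SD, n = 4) in the control units and 243 ± 45.4 TPM (SD, n = 3) in the others. In CPM it was at 79.1, 96.2, 124 and 120 against 87.6, 80.0 and 64.6, with overlap (-0.44, edgeR adjusted p = 0.122). Without the GC trend it passed, at -1.01 (adjusted p = 0.0230), in the fit that also takes out length. Against the median of genes within 1 percentage point of its GC content, Ifi27l2a lay at -0.63. Ifi44 had the lowest level per length, 2.20 TPM in the control mean. It was at 6.06, 7.08, 5.82 and 3.28 CPM against 2.88, 3.34 and 1.36 CPM, where control unit 4 fell among the knockout-labelled units (-1.14 ± 0.41, edgeR adjusted p = 0.0841). Parp14, an ADP-ribosyltransferase, ran from 236 to 379 CPM against 185 to 282 CPM (-0.45, edgeR adjusted p = 0.142). Ifi35 was the most even member across all units, at 47.6 to 53.3 CPM against 47.2 to 52.8 CPM (0.00 ± 0.12, edgeR adjusted p = 0.984).

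**Figure D4:**
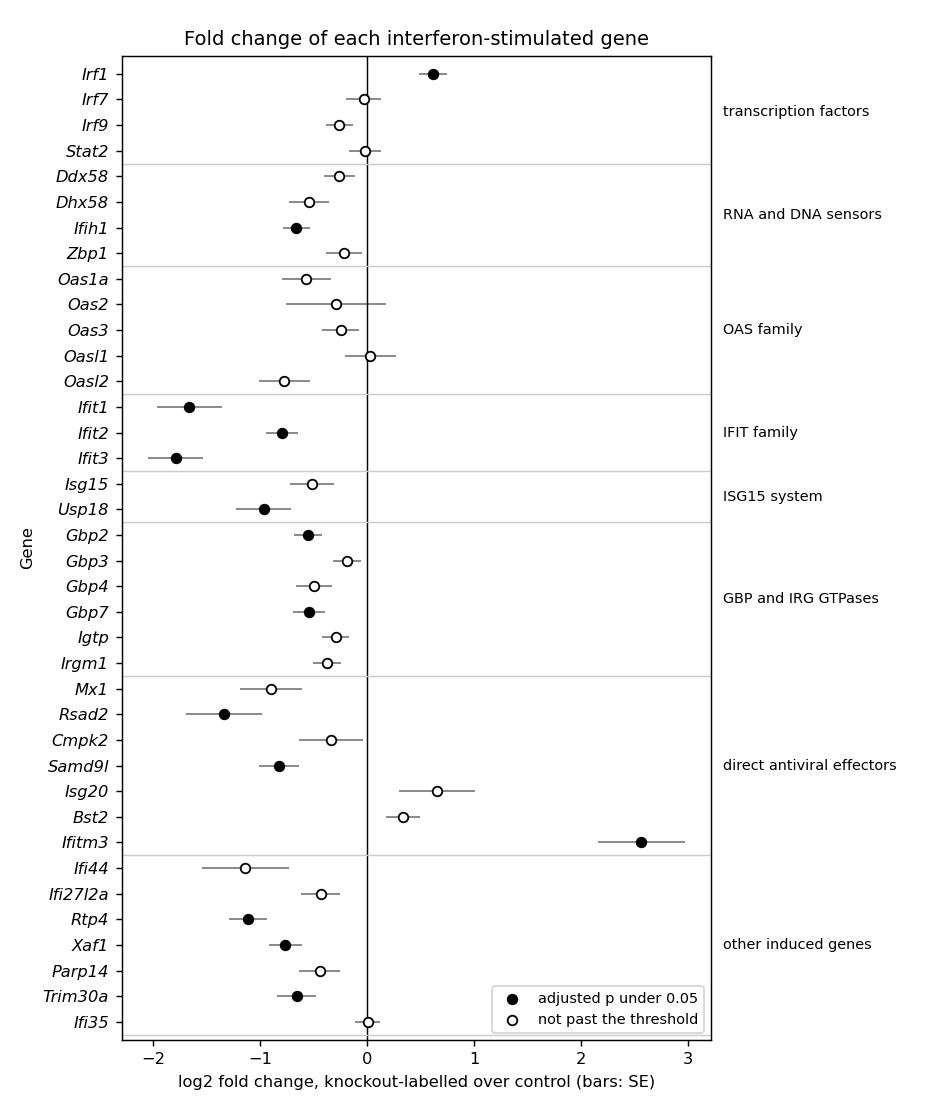
Log2 fold change, knockout-labelled over control (horizontal axis, bars are SE), of the 38 genes by role, with filled points for an edgeR adjusted p under 0.05. The filled points are 12 genes below 0, led by Ifit3 at -1.79 and Ifit1 at -1.66, and 2 above 0, Irf1 at 0.61 and Ifitm3 at 2.56.

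The members were also read unit by unit. The median deviation of a member from its mean over the 7 units, in log2 CPM, was 0.28, 0.10, 0.33 and 0.18 in the control units and -0.19, -0.16 and -0.41 in the knockout-labelled units. Knockout-labelled unit 3 was therefore the lowest as a whole, and it held the lowest value of 28 of the 38 genes. It also had the lowest regulatory T cell marker sum, 3323 CPM. Its sums were the highest for B cells (9170 CPM), neutrophils (1637 CPM), monocytes and macrophages (705 CPM) and erythroid cells (3811 CPM). Its dendritic cell and cytotoxic lymphocyte sums were the lowest of its group. The part of this make-up in its member values was not tested. Without that unit the median log2 fold change of the members was -0.36, and 10 fell, the calls on Gbp7 and Trim30a being the ones that ended. Of the 8 role groups, 7 had their lowest median in that unit, from -1.38 for the IFIT family to -0.18 for the transcription factors. The direct antiviral effectors, which hold Ifitm3 and Isg20, were the other group, at 0.26 in that unit.

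Transcript composition also moved with the fold changes. Over all tested genes the median log2 fold change climbed from -0.57 for genes with at most 40% GC to 0.38 for genes above 55% GC. The 38 members spanned 38.78 to 56.25% GC with a median of 49.4%, beside 49.8% over all genes, and the 12 that fell spanned 38.78 to 50.93%. Against genes within 1 percentage point of their own GC content, 34 of the 38 members and all 12 that fell lay below the median, by a median of -0.41 over the 38. In the fit that takes out the trends with GC content and length together, 7 members fell (Ifit3, Rtp4, Xaf1, Gbp7, Dhx58, Isg15 and Ifi27l2a). Of these, 4 were also among the 12, and Ifitm3 alone rose. The median of the members was then -0.39. The source of the GC trend was not tested.

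**Figure D5:**
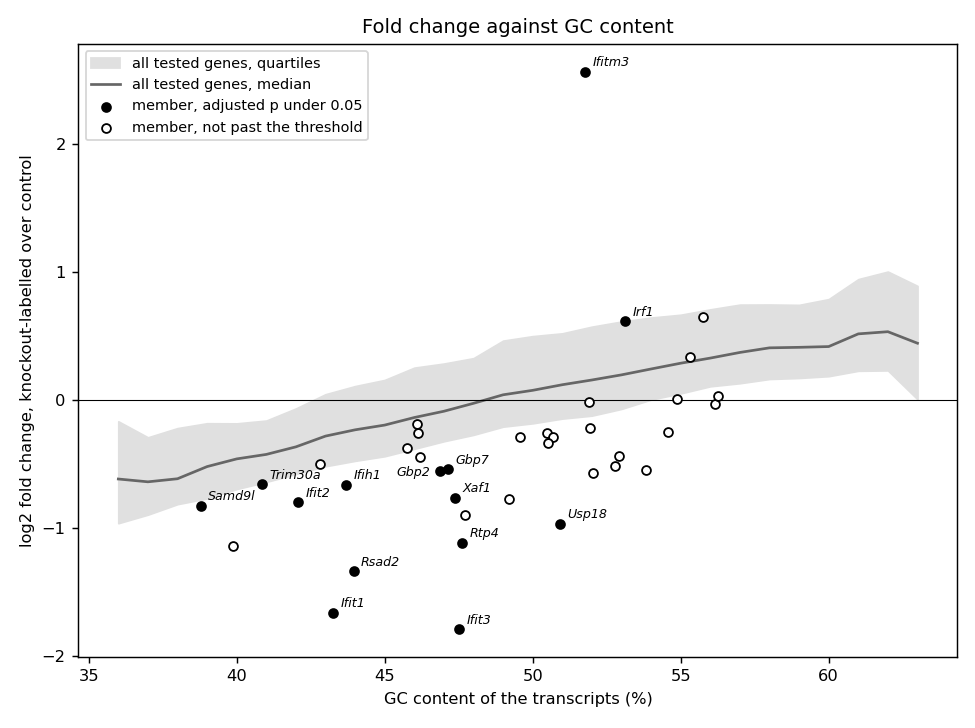
Log2 fold change, knockout-labelled over control (vertical axis), against the GC content of each member's transcripts in percent (horizontal axis), with the median and quartiles of all tested genes in grey. The 12 members that fell lie under the grey median line, and Ifitm3 at 2.56 stands far above it.

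Of 41 genes that make, receive and relay the interferon signal, 32 were tested, with 3 called higher and 1 lower and a median log2 fold change of 0.09. These 4 calls were 12.5% of the genes tested, near the 13.6% of all tested genes. Among the ligands, 8 of 10 (Ifnb1, Ifna1, Ifna2, Ifna4, Ifna5, Ifne, Ifnl2 and Ifnl3) had no read in any unit, which allows at most 0.0347 CPM over the control units and 0.0215 CPM over the knockout-labelled units, counting error only. Ifng, the type II interferon, was the only ligand tested. It was at 8.02, 3.76, 1.77 and 5.79 CPM against 8.46, 10.5 and 4.23 CPM, with overlap (0.69 ± 0.49, edgeR adjusted p = 0.366). None of the 6 receptor genes passed. Ifnar1, a chain of the type I receptor, was at 266, 251, 280 and 275 CPM against 275, 325 and 226 CPM (0.04, edgeR adjusted p = 0.876), and Ifngr1 of the type II receptor ran from 166 to 185 CPM against 170 to 195 CPM (0.07, edgeR adjusted p = 0.711). Both overlapped. At an unadjusted p under 0.05, edgeR had 1 receptor gene higher and 1 lower. Each is 16.7% of the receptor genes, near the 17.6% (higher) and 15% (lower) of all tested genes. The higher 1 was Ifnlr1, with 1 to 4 reads in each control unit and 20 to 35 in each knockout-labelled unit. Its groups did not overlap (log2 2.41 ± 0.82, edgeR adjusted p = 0.0734). The lower 1 was Ifnar2, the other chain of the type I receptor. It was at 79.4, 89.0, 90.8 and 79.1 CPM against 67.2, 57.1 and 66.6 CPM, without overlap (-0.41 ± 0.12, edgeR adjusted p = 0.0513).

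Of the 7 feedback inhibitors 1 fell. Socs1, which blocks Janus kinases and is induced through them, was at 19.3, 24.3, 22.3 and 22.2 CPM against 10.7, 14.1 and 12.3 CPM. The knockout-labelled units were all lower, 1.78-fold on the fitted scale (log2 -0.83 ± 0.18, edgeR adjusted p = 0.0195), and this call was lost on leaving out control unit 4 or knockout-labelled unit 1 (adjusted p = 0.0530 to 0.0580), with a log2 fold change of -0.94 to -0.75 over the fits with 1 unit left out. Without the GC trend Socs1 passed, at -1.24 (adjusted p = 0.00396).

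The 3 pathway genes that rose all belong to the sensing step. Tlr9, the endosomal receptor for unmethylated DNA, was at 1.26, 0.586, 0.699 and 0.762 CPM against 10.8, 7.25 and 6.78 CPM (log2 3.34 ± 0.37, edgeR adjusted p = 0.00108). Irf8, a factor of B cells, dendritic cells and macrophages, was at 29.4, 19.1, 18 and 21.9 CPM against 64.3, 44.3 and 70.3 CPM (log2 1.44 ± 0.21, edgeR adjusted p = 0.00378). Irf5, which acts downstream of Toll-like receptors, was at 14.2, 9.38, 12.3 and 11.4 CPM against 27.1, 21.5 and 29.0 CPM (log2 1.13 ± 0.20, edgeR adjusted p = 0.00831). No knockout-labelled unit of these genes reached down to a control unit. B cells and myeloid cells express all 3, and the B-cell marker sum was at 454 to 1329 CPM against 4048 to 9170 CPM. Their part in these values was not tested. Of all 13 sensing genes, 4 (30.8%) were higher at an edgeR unadjusted p under 0.05, beside 17.6% of all tested genes. In the lower direction 3 (23.1%) reached it, beside 15%. The smallest p of those 3 was that of Tlr7, at 61.5, 68.6, 60.4 and 61.9 CPM against 54.0, 29.5 and 23.3 CPM. Its groups did not overlap (log2 -0.83 ± 0.26, edgeR adjusted p = 0.0635).

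Outside the 38, 50 further interferon-stimulated genes were tested, of which 16 (32%) were called lower, beside 6.52% of all tested genes, and 2 (4%) higher, beside 7.07%. Their median log2 fold change was -0.38, and without the GC trend 8 were called in all. This list too was chosen with earlier results of these data known, so its shares are a description. The decreases with the smallest adjusted p were in Ifit1bl1, a relative of Ifit1, and in Iigp1, an immunity-related GTPase. Ifit1bl1 was at 137, 226, 199 and 151 CPM against 55.4, 60.1 and 60.0 CPM (log2 -1.61 ± 0.18, edgeR adjusted p = 0.00118). Iigp1 was at 248, 167, 165 and 176 CPM against 73.0, 67.2 and 57.3 CPM (log2 -1.52 ± 0.18, edgeR adjusted p = 0.00121). Both sets of knockout-labelled values were tight and far under the control values. Trim34a followed, at 81.4 to 94.3 CPM against 31.2 to 48.8 CPM (log2 -1.07 ± 0.17, edgeR adjusted p = 0.00528), and then Trim12c, at 169 to 191 CPM against 69.0 to 108 CPM (log2 -0.93 ± 0.16, edgeR adjusted p = 0.00827). Without the GC trend Trim12c did not pass (-0.47, adjusted p = 0.124), and Iigp1 still did with a smaller difference (-0.81, adjusted p = 0.00366). Trim34a and Trim12c share 48.8% and 46.2% of their 31-base words with other genes, mainly Trim34b and Trim5. The 2 genes called higher were Ifitm1 and Ifitm2, described above.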

How the data were processed

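RNA of sorted splenic regulatory T cells was sequenced from non-stranded libraries, per the labels, so reads from antisense genes cannot be told apart. The authors quantified transcripts with kallisto against GRCm38, per the submitters' processing notes; no source used here gives its version. The deposited tables hold estimated counts and TPM for 88198 transcripts, of which 2079 matched no gene. Here the estimated counts were summed by gene (GENCODE M21 names), the 2 samples of a unit were added (14 samples, 7 units) and the sums were rounded. The 2 samples of a unit differed by a chi-square per degree of freedom of 1.44 to 1.90, and units of a group by at least 12.8. Genes passing filterByExpr were fitted with edgeR 4.0.16 (TMM, robust quasi-likelihood, R 4.3.3), with a Benjamini-Hochberg adjusted p under 0.05 as the call. CPM are after TMM. TPM, as deposited, were summed by gene and averaged over the 2 samples of a unit, and serve to compare levels between genes. Shared sequence is the share of a gene's 31-base words found in other genes. Promoters are RefSeq's.

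The main edgeR fit alone was tested on simulated counts. Alternatives were other scalings, filters and offsets, limma 3.58.1 (voom), DESeq2 1.42.0, leaving out each unit, and a replicate block. The fit without the GC trend, which also takes out the trend with length and is centred on the median gene, was added after seeing the data. The members and lists were chosen with earlier results of these data known. Values are given by unit for members that passed or that lead their role group per length. Other members are given by unit or as ranges, among them some whose call or sign turned in an alternative. Of the other lists, the genes past the threshold with the smallest adjusted p were named, up to 4 a direction, with Ifnar1, Ifngr1, Ifng and Socs1 always. Ifnar2, Ifnlr1 and Tlr7, which did not pass, were named in addition. 1 further pathway gene is not reported here.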

Additional observations from a re-analysis of the deposited data

Results flagged for a closer look

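In 7 of 60 interferon genes looked at, 1 of the 4 control units stood apart from the other 3 by most of the group's range, where chance does so in about 1 in 20 groups. The low units were control unit 1 for Irf9 (181.5 CPM) and control unit 2 for Ddx58 (149.5 CPM) and Trim14 (31.7 CPM). The high units were control unit 3 for Usp18 (55.79 CPM) and Bst2 (33.89 CPM), control unit 2 for Irgm1 (150.6 CPM) and control unit 1 for Iigp1 (247.7 CPM). The knockout-labelled group, with 3 units, was not examined in this way.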

How the results depend on the processing

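With an edgeR fit, 12 members were called lower, 2 higher, and 2144 genes in all. Other size factors, library size alone, upper quartile, other filters, limma-voom and the effective-length offset gave 9 to 14 lower and 2 higher. DESeq2's Wald test gave 19 lower among the members, 10 pathway genes and 3546 genes in all. A GC and length offset gave 25 lower and 1 higher, 9 pathway genes, 33 other interferon-stimulated genes, 3248 genes in all and a median over the members of -0.66. It also moved the median of all genes to -0.27 and the share of higher calls from 52.1% to 23.0%. Centred on the median gene, it gave 7 lower and 1 higher, 8 other interferon-stimulated genes, 1342 genes in all, a median of -0.39 and 61.2% higher calls. Leaving out 1 unit gave 6 to 10 members lower, 1 to 2 higher, 3 to 6 pathway genes, 9 to 17 other interferon-stimulated genes, 758 to 1905 genes in all and a median of -0.58 to -0.36. The low ends of the counts came without control unit 4. In the fits with 1 unit left out, 7 of the 14 called members passed every time. Same-numbered units did not deviate together (correlations of 0.025, -0.173 and -0.0353), and units of unlike number had correlations from -0.246 to 0.249. With so few units, these values cannot show whether the numbers pair the samples. With a replicate block, 3 members were lower (Ifit2, Ifit3 and Rtp4), 1 higher, 6 other interferon-stimulated genes and 553 genes in all were called, and not every unit correlated best with its own number. The replicate block with the GC and length offset gave 16 lower, 1 higher and a median of -0.69. The cause of these differences was not tested.

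Signs turned in genes that were not called. With the GC and length offset the log2 fold change was -0.60 for Ifi35 (edgeR adjusted p = 0.0157), -0.50 for Oasl1, -0.43 for Bst2, -0.13 for Isg20, -0.32 for Ifnar1, -0.17 for Ifngr1, -0.18 for Tln1 and -0.50 for Foxp3. Centred, it was -0.33 for Ifi35, -0.23 for Oasl1, -0.15 for Bst2, 0.0208 for Gbp3, -0.0492 for Ifnar1 and -0.23 for Foxp3. The replicate block with that offset gave -0.62 for Ifi35, -0.53 for Oasl1, -0.43 for Bst2, -0.23 for Isg20, -0.33 for Ifnar1, -0.15 for Ifngr1, -0.19 for Tln1 and -0.50 for Foxp3. The replicate block alone gave -0.0200 for Ifi35 and -0.0045 for Oasl1. Ifi35 was -0.0035 with DESeq2 size factors, -0.0052 with DESeq2's Wald test, -0.0095 with limma-voom and -0.0106 with a CPM filter. Oasl1 was -0.0188 with limma-voom, Stat2 was 0.0087 with library size only and 0.0046 with upper quartiles, and Tln1 was -0.40 with the effective-length offset. Leaving out 1 unit gave ranges that cross 0 for Ifi35 (-0.0273 to 0.0527), Stat2 (-0.18 to 0.0968), Irf7 (-0.13 to 0.1016), Oasl1 (-0.0753 to 0.13), Oas2 (-0.78 to 0.0752), Isg20 (-0.0258 to 0.90), Ifnar1 (-0.0966 to 0.16) and Foxp3 (-0.12 to 0.12).

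Depth limits 3 of the 38 members most, those with under 100 reads in some unit. A lone left-out unit leaves at least 2 units a group, and genotype and the other cells' transcripts in the knockout-labelled units cannot be told apart.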
